A study of Mus musculus with 18 samples.

Results

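This account covers 9 genes of the S100 and annexin families, S100a1, S100a6, S100a10, S100a11, S100a13, S100b, Anxa2, Anxa3 and Anxa5, in mouse hippocampal astrocytes and in the whole hippocampus of a kainic acid (KA) model of mesial temporal lobe epilepsy. They are 9 of the 55291 gene symbols measured, 6 S100 genes and 3 annexins, taken by symbol and found in all 18 libraries. The list was drawn up with earlier results of these data known. Counts of members called, set beside shares of all genes, therefore describe these genes and do not test the families. Male C57BL/6J mice were injected at 6 weeks of age with an adeno-associated virus (AAV) that carried GfaABC1D-EGFP-Rpl10a, a tagged ribosomal protein driven by an astrocyte promoter, into the right CA3 region. In the KA group, 50 nL of 20 mM KA was injected into the right dentate gyrus 2 weeks after the AAV, and RNA of the right hippocampus was collected 14 days after KA. The PBS group received the same AAV and then PBS in place of KA. The AAV control group received the AAV alone, with RNA collected 2 weeks later, so it differed from the KA group in surgery and in the interval after AAV as well as in KA. Each group had 3 samples that each pooled the right hippocampi of 3 to 4 mice. Every sample gave an IP library, in which an anti-GFP antibody pulled down RNA on tagged ribosomes, and an input library of total RNA from the same homogenate. Only cells that the virus reached carried the tag, and all 3 groups carried it.

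S100 proteins are small calcium-binding proteins of the EF-hand type that mostly act as dimers, changing shape with calcium and docking onto target proteins. Annexins bind acidic membrane phospholipids in the presence of calcium and take part in membrane repair, vesicle traffic and contact of membranes with the actin cytoskeleton. The families meet in the complex of S100A10 with annexin A2 at the inner face of the plasma membrane, and S100A6 and S100A11 also bind annexins. In the brain, S100b is a classical marker of astrocytes that oligodendrocytes express as well, and several S100 genes and annexins are known from gliosis after injury.

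In GENCODE vM21 on GRCm38, the build named mm10 in the processing notes, 5 of the 6 S100 genes lie on chromosome 3. S100a1 (chr3:90511034-90514392, minus strand) and S100a13 (chr3:90514435-90524581, plus strand) stand head to head with 42 bases between them. S100a6 follows on the plus strand at chr3:90612882-90624181, and S100a11 (chr3:93520488-93526287) and S100a10 (chr3:93555080-93564643) lie together farther along on the same strand. S100b is at chr10:76253853-76261159 on the plus strand and overlaps Dip2a of the opposite strand. Anxa2 (chr9:69453620-69491795, plus strand) overlaps Mir3109 and the antisense gene Gm16144, Anxa3 (chr5:96793339-96845966, plus strand) overlaps Gm42603, and Anxa5 (chr3:36448923-36475894, minus strand) overlaps Mir7009. The source used here does not state whether counting used strand. How reads were counted in the stretches that S100b and Anxa2 share with opposite-strand neighbours is therefore not known.

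RefSeq promoter windows of GRCm38.p6, from 250 bases before to 50 bases after the transcript start, were found for 7 of the 9 genes, all but S100a10 and Anxa3. Those of S100a11 and Anxa2 are shown because these genes had the largest KA fold changes among the members tested in IP, and that of S100a1 because 204 of its 300 bases (chr3:90514281-90514484) are shared with the window of S100a13, which runs on the other strand. Each is written on the strand of its gene, and capitals mark matches to the AP-1 motif TGANTCA or the TATA motif TATAAA.
S100a11, chr3:93520246-93520545, plus strand: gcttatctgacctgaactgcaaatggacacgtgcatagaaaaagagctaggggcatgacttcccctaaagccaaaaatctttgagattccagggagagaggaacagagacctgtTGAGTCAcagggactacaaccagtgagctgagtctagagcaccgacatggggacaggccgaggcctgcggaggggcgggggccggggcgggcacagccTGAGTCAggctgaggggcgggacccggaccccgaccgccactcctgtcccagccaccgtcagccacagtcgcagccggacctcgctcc
Anxa2, chr9:69453433-69453732, plus strand: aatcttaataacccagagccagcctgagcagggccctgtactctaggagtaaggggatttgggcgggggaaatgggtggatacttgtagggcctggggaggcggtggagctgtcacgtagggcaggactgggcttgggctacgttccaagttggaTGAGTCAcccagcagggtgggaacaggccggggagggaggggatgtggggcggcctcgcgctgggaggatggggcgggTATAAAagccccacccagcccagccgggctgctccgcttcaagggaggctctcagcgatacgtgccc
S100a1, chr3:90514281-90514580, minus strand: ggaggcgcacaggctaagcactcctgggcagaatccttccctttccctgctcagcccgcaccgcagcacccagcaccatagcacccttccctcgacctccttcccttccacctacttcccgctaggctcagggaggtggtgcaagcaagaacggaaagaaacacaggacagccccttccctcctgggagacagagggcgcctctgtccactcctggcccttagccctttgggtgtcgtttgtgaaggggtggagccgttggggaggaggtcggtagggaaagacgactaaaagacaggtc
The motif TGANTCA occurred at 2 places in the S100a11 window, starting 136 and 38 bases before the transcript start, and at 1 place in the Anxa2 window, 95 bases before it. Of 32851 mouse promoter windows of the same length, 7.81% held this motif on either strand, and among the members these 2 of 7 did. TATAAA was present in the Anxa2 window and in 13.6% of all windows. The other motifs searched on both strands were GGGCGG (S100a11 and Anxa2, and 35.7% of all windows), CCAAT (S100a6 and S100b, and 37.4%), CACGTG (S100a6 and S100a11, and 7.15%), and TTCNNNGAA, GGAATG and an SRF-like motif, each without a match in a member and with a match in 8.3%, 14.7% and 0.0639% of all windows. No motif of the search was found in the shared window of S100a1 and S100a13 or in the window of Anxa5.

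Library totals ranged from 7991681 to 16032180 counts. The 9 genes together took from 0.301% to 0.529% of the counts of an IP library and from 0.0383% to 0.118% of an input library. Their counts per library ran from 21 for S100a11 in PBS input #1 to 27875 for S100a1 in PBS IP #1. The list of 7 astrocyte markers summed to between 4910 and 8158 FPKM (fragments scaled by gene length and library size) in AAV control IP and between 422 and 753 FPKM in AAV control input, so the IP held the labelled cell type at a higher level. AAV control #3 stood apart from AAV control #1 and #2 in several members, and it was sequenced in run 2 with KA #3, whereas the other KA and AAV control samples were in run 1 and all PBS samples in run 3. The 5 ependymal markers summed to 379 FPKM in AAV control IP #3 and 281 FPKM in PBS IP #3, against 20.3 to 54.7 FPKM in the other control IP libraries and 48.9 to 104 FPKM in KA IP. The part of this in the member values was not tested. The PBS group therefore cannot be told apart from its run. Nothing in the labels says which mice entered which sample, and p-values measure the spread between the 3 pooled samples of a group. In these bulk samples, fewer cells of a type and less RNA per cell cannot be told apart.

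In the control IP libraries, S100a1 was the most abundant member, at 2719 ± 213 FPKM in the AAV control group and 2454 ± 667 FPKM in the PBS group (mean ± SD, n = 3 in each group here and below). S100b followed at 979 ± 106 and 907 ± 204 FPKM, and S100a13 at 564 ± 80.2 and 479 ± 113 FPKM. The ranges of these 3 genes did not overlap with each other within either control group. S100a6 and Anxa5 came next and their ranges overlapped, at 170 ± 67.7 and 148 ± 15.3 FPKM in AAV control IP. S100a10 averaged 80.5 ± 29.5 FPKM there and overlapped with S100a11 at 33.8 ± 27.8 FPKM. The lowest levels were those of Anxa2, at 5.37 ± 3.59 FPKM, and Anxa3, at 1.06 ± 0.414 FPKM. In KA IP the order was narrower: S100a1 still led at 1703 ± 374 FPKM without overlap, but S100b (799 ± 267) overlapped with S100a6 (461 ± 153), S100a6 with S100a13 (435 ± 34.2), and Anxa5 (275 ± 31.1), S100a11 (208 ± 47.3) and S100a10 (199 ± 39.3) overlapped in a row. Anxa2 and Anxa3 remained lowest, at 25.4 ± 5.46 and 7.86 ± 1.58 FPKM.

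**Figure D1:**
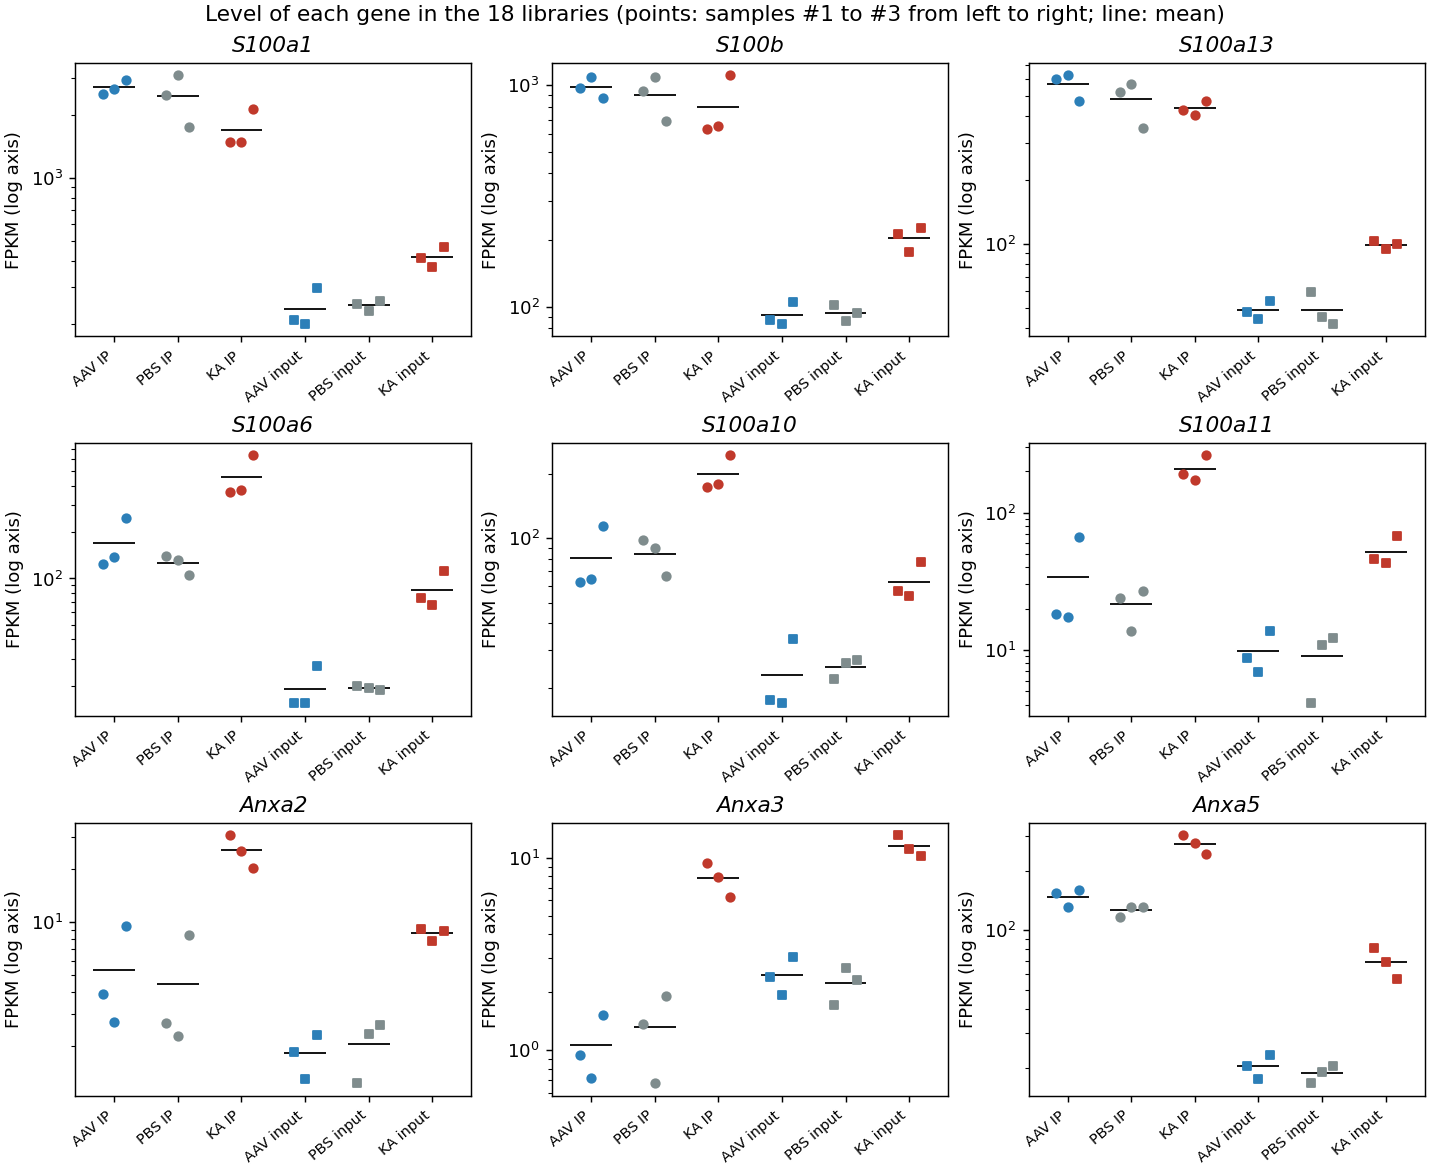
FPKM of each gene on a log axis in the 18 libraries, with circles for IP, squares for input, 1 point per sample (#1 to #3 from left to right) and a line at the group mean. S100a6, S100a10, S100a11, Anxa2, Anxa3 and Anxa5 sit higher in KA than in both controls in IP and in input, whereas S100a1, S100b and S100a13 do so in input and not in IP.

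The comparison of KA IP with the control IPs asks which members changed in the RNA pulled down with tagged ribosomes. Against AAV control IP, 4 of the 8 members tested were called, at an edgeR adjusted p under 0.05 and a change of at least 1 on the log2 scale in either direction, and all 4 were higher in KA: S100a6, S100a10, S100a11 and Anxa2. Of all 9729 genes tested, 6.39% were called higher and 5.22% lower. Against PBS IP, 5 of 8 members were called, the same 4 and Anxa5, all higher, where 8.08% of all genes were called higher and 9.34% lower. The median log2 fold change of the members tested was 1.14 against AAV control and 1.18 against PBS, beside medians over all genes of -0.02 and -0.01. Anxa3 was below the limit of FPKM above 1 in some control IP libraries and was not part of these tests.

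S100a11, a partner of annexins in membrane repair, measured 192, 171 and 262 FPKM in KA IP #1 to #3. In AAV control IP it measured 18.2, 17.4 and 66.0 FPKM, and in PBS IP 24.1, 13.9 and 26.8 FPKM. Every KA library lay above every control library, and AAV control #3 was the highest of the controls. The log2 fold change was 2.63 ± 0.58 (SE) against AAV control (edgeR adjusted p = 0.018) and 3.31 ± 0.27 against PBS (edgeR adjusted p = 2.33e-05), or 6.18-fold and 9.93-fold.

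Anxa2, the annexin that forms a complex with S100A10 and acts as a cell surface receptor for plasminogen and its activators, was the other gene with a large change. It measured 31.0, 25.2 and 20.1 FPKM in KA IP, 3.93, 2.72 and 9.46 FPKM in AAV control IP and 2.68, 2.25 and 8.45 FPKM in PBS IP. The groups did not overlap, and sample #3 was the lowest of the KA group and the highest of both control groups, where it also had the high ependymal sums. The log2 fold change was 2.23 ± 0.47 against AAV control (edgeR adjusted p = 0.0155) and 2.57 ± 0.38 against PBS (edgeR adjusted p = 8.05e-04).

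S100a10, the S100 protein that does not need calcium to hold annexin A2, measured 174, 179.5 and 245 FPKM in KA IP. Its levels were 62.6, 64.3 and 114.5 FPKM in AAV control IP and 98.0, 89.9 and 66.4 FPKM in PBS IP. All KA libraries were above all controls, with a log2 fold change of 1.35 ± 0.34 against AAV control (edgeR adjusted p = 0.0292) and 1.24 ± 0.26 against PBS (edgeR adjusted p = 0.00498). S100a6, or calcyclin, which binds annexins and the ubiquitin ligase adaptor CacyBP, measured 366, 379 and 637 FPKM in KA IP. It measured 123.5, 138 and 247 FPKM in AAV control IP and 141, 131.5 and 106 FPKM in PBS IP, again without overlap. Its log2 fold change was 1.495 ± 0.41 against AAV control (edgeR adjusted p = 0.0373) and 1.89 ± 0.32 against PBS (edgeR adjusted p = 0.00155). KA #3 and AAV control #3 were the highest of their groups in both genes.

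Anxa5, the phosphatidylserine-binding annexin used as a stain for dying cells, measured 304, 278 and 242 FPKM in KA IP. It measured 154, 131 and 160 FPKM in AAV control IP and 116, 131 and 132 FPKM in PBS IP, so the groups did not overlap. Its log2 fold change against PBS was 1.11 ± 0.21 (edgeR adjusted p = 0.00269). Against AAV control it was 0.93 ± 0.19 (edgeR adjusted p = 0.0143), below the fold limit for a call. Anxa3, an annexin known from myeloid cells and microglia, measured 9.42, 7.91 and 6.26 FPKM in KA IP, 0.947, 0.718 and 1.52 FPKM in AAV control IP and 1.37, 0.673 and 1.91 FPKM in PBS IP. These groups did not overlap either. In fits without the FPKM filter its log2 fold change was 2.98 ± 0.28 against AAV control (edgeR adjusted p = 1.55e-23) and 2.82 ± 0.26 against PBS (edgeR adjusted p = 3.73e-25), on counts of 25 to 80 in the control libraries. Those fits held 31675 and 37476 genes, and their p-values cannot be set beside those of the filtered fits. The smallest edgeR adjusted p of any gene in the filtered fits was 7.46e-05 against AAV control and 1.66e-07 against PBS.

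S100a1, S100a13 and S100b, the 3 members with the highest levels in control IP, showed no call in KA IP in either direction. S100a1, known as a regulator of calcium handling in muscle and also expressed in glia, measured 1491, 1482 and 2135 FPKM in KA IP against 2535, 2669 and 2953 FPKM in AAV control IP. All 3 KA values lay below those of AAV control, but the log2 fold change of -0.61 ± 0.28 did not pass the test (edgeR adjusted p = 0.166). With the replicate number as a block it was -0.64 ± 0.17 and passed the p limit (edgeR adjusted p = 0.0278), still short of the fold limit. PBS IP, at 2507, 3093 and 1762 FPKM, overlapped with KA (log2 fold change -0.54 ± 0.36, edgeR adjusted p = 0.266). S100b measured 633.5, 658 and 1107 FPKM in KA IP, 974, 1087 and 875 FPKM in AAV control IP and 939, 1093 and 689 FPKM in PBS IP. KA #3 was the highest of these 9 libraries, and the log2 fold changes were -0.20 ± 0.31 and -0.18 ± 0.37 (edgeR adjusted p = 0.69 and 0.733). S100a13, which takes part in the release of proteins that lack a signal peptide, measured 426, 406 and 472.5 FPKM in KA IP, 598, 622 and 472.4 FPKM in AAV control IP and 518, 567 and 352 FPKM in PBS IP. Its log2 fold changes were -0.30 ± 0.19 and -0.16 ± 0.27 (edgeR adjusted p = 0.31 and 0.679).

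**Figure D2:**
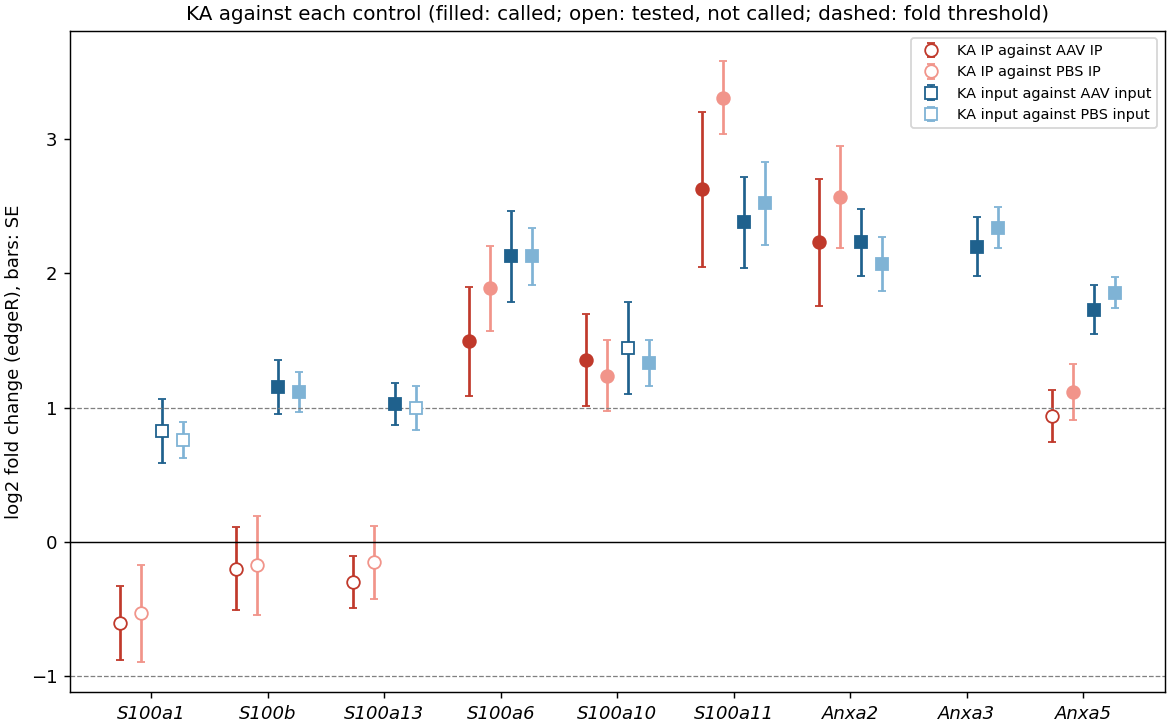
Log2 fold change ± SE of KA against AAV control and against PBS, in IP (circles) and input (squares), for each member tested, with filled symbols for called genes and dashed lines at the fold limit of 1 and -1. S100a11 is highest in IP (2.63 and 3.31), S100a1, S100b and S100a13 lie below 0 in IP and between 0.76 and 1.16 in input, and Anxa3 was tested only in input.

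The count of calls against AAV control depended on single libraries. With KA IP #1, #2 or #3 left out in turn it was 1, 2 and 1, with AAV control IP #1, #2 or #3 left out it was 0, 1 and 5, and the log2 fold changes of S100a6, S100a10, S100a11 and Anxa2 stayed between 1.10 and 3.68. A fit of run 1 alone, without KA #3 and AAV control #3, was added after seeing the data and held 2 libraries per group. It called 5 members, with log2 fold changes of 3.42 for S100a11, 3.14 for Anxa2, 1.58 for S100a6, 1.54 for S100a10 and 1.10 for Anxa5. There S100a1 (-0.74), S100b (-0.61) and S100a13 (-0.49) also passed the p limit in the lower direction (edgeR adjusted p = 3.12e-04, 0.00137 and 0.00263) without reaching the fold limit. In run 2 each group had 1 sample, and KA #3 was above AAV control #3 in the same 5 genes. S100a1 was lower in KA #3 there too, S100b was higher (1107 against 875 FPKM) and S100a13 was level (472.5 against 472.4 FPKM). Marker lists of other cells moved in the same IP libraries. The 6 oligodendrocyte markers summed to 1233 to 2357 FPKM in KA IP, 204 to 898 in AAV control IP and 226 to 489 in PBS IP. The 8 microglia markers summed to 24.0 to 45.3 FPKM in KA IP, 11.2 to 20.5 in AAV control IP and 15.4 to 22.2 in PBS IP, and the 6 neuron markers to 219 to 296, 96.8 to 143 and 110 to 185 FPKM. The 7 astrocyte markers summed to 2436 to 2765 FPKM in KA IP, below the 4910 to 9703 FPKM of the controls, and the 6 reactive astrocyte markers to 4677 to 4923 FPKM, above the 606 to 1254 FPKM of the controls. The astrocyte list was not uniform: Slc1a3, Slc1a2 and Gja1 were called lower against both controls, whereas Aqp4 had log2 fold changes of 0.99 and 0.89 (edgeR adjusted p = 0.0145 and 0.0525) and Kcnj10 of 0.53 and 0.80 (edgeR adjusted p = 0.157 and 0.0283) against AAV control and PBS. Endothelial markers summed to at most 3.90 FPKM and meningeal fibroblast markers to at most 0.934 FPKM in KA IP, and Ly6c2 and Plac8 of the other myeloid list were at 0 in all 3. The part of these shifts in the member values was not tested.

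**Figure D3:**
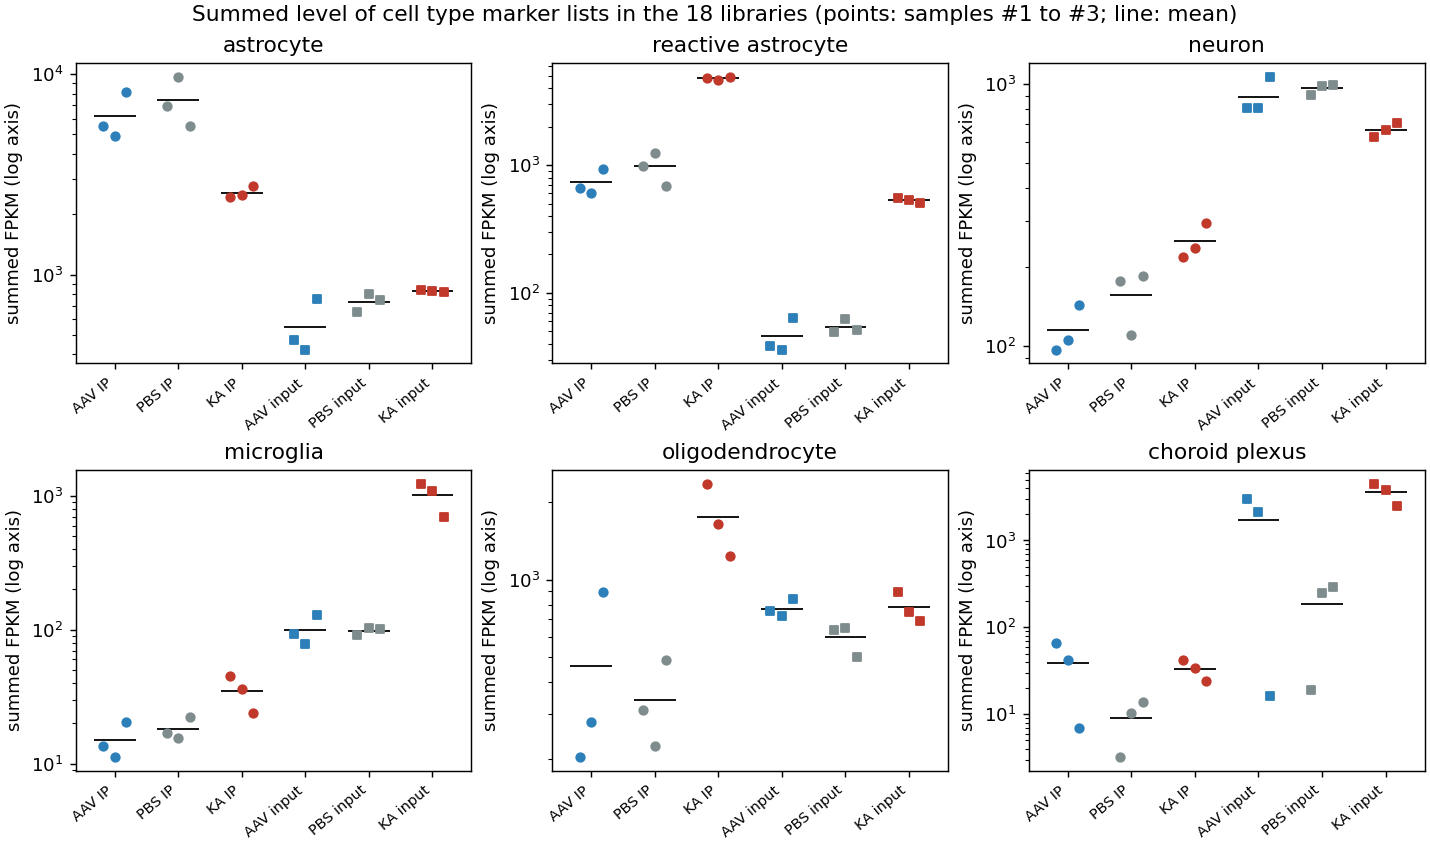
Summed FPKM of 6 lists of cell type markers on a log axis, with 1 point per sample, circles for IP, squares for input and a line at the group mean. In KA input the microglia list is at 698 to 1231 FPKM against 77.8 to 129 FPKM in both controls, and in KA IP the astrocyte list is below and the reactive astrocyte list above the controls.

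The input libraries show the members in RNA of the whole hippocampus. Against AAV control input, 7 of 9 members were called, all higher in KA, where 2.52% of all genes were called higher and 0.185% lower. Against PBS input, 7 of 9 were also called, all higher, beside 4.26% of all genes called higher and 1.09% lower. For all 9 members every KA input library was above every AAV control and every PBS input library. The share of all genes whose groups separate in this way was not computed, in this or any other comparison of ranges.

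Among the annexins, Anxa3 in input measured 13.1, 11.1 and 10.2 FPKM in KA, 2.41, 1.93 and 3.03 FPKM in AAV control and 1.72, 2.68 and 2.32 FPKM in PBS. KA lay several times above both controls, with a log2 fold change of 2.20 ± 0.22 against AAV control (edgeR adjusted p = 0.0017) and 2.34 ± 0.15 against PBS (edgeR adjusted p = 2.15e-06). Anxa5 in input measured 80.8, 69.0 and 56.2 FPKM in KA, 20.4, 17.6 and 23.4 FPKM in AAV control and 16.8, 19.1 and 20.5 FPKM in PBS. Its log2 fold changes were 1.73 ± 0.18 and 1.86 ± 0.11 (edgeR adjusted p = 0.00243 and 1.4e-06), so it passed the fold limit in input against both controls. Anxa2 in input measured 9.11, 7.82 and 8.94 FPKM in KA, and at most 2.61 FPKM in any control library. Its log2 fold changes were 2.23 ± 0.25 and 2.07 ± 0.20 (edgeR adjusted p = 0.0031 and 4.35e-05).

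Of the S100 genes, S100a11 in input measured 45.8, 42.9 and 67.2 FPKM in KA and 4.09 to 13.7 FPKM in the 6 control libraries, with log2 fold changes of 2.38 ± 0.34 and 2.52 ± 0.31 (edgeR adjusted p = 0.00813 and 2.46e-04). S100a6 in input measured 74.1, 66.9 and 111 FPKM in KA and 15.3 to 26.8 FPKM in the controls, with log2 fold changes of 2.13 ± 0.34 and 2.13 ± 0.21 (edgeR adjusted p = 0.013 and 5.72e-05). S100a10 in input measured 56.5, 53.5 and 77.8 FPKM in KA, 17.6, 16.9 and 33.9 FPKM in AAV control and 22.01, 26.2 and 26.8 FPKM in PBS. It was called against PBS (1.33 ± 0.17, edgeR adjusted p = 3.51e-04) and missed the p limit against AAV control (1.44 ± 0.34, edgeR adjusted p = 0.0587), where AAV control #3 stood above all PBS libraries. With the replicate number as a block, which also separates run 1 from run 2, the latter became 1.51 (edgeR adjusted p = 4.45e-04) and passed.

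The 3 members that were not called in KA IP against either control had higher levels in KA input. S100b in input measured 212.5, 176 and 227.5 FPKM in KA, 87.3, 84.0 and 105.5 FPKM in AAV control and 101.5, 86.7 and 94.3 FPKM in PBS. Its log2 fold changes were 1.16 ± 0.20 and 1.12 ± 0.15 (edgeR adjusted p = 0.0186 and 4.47e-04). S100a13 in input measured 103, 94.7 and 99.3 FPKM in KA, 47.6, 44.2 and 53.8 FPKM in AAV control and 59.4, 45.4 and 41.9 FPKM in PBS. It was called against AAV control at 1.02 ± 0.16 (edgeR adjusted p = 0.0109) and stood just below the fold limit against PBS at 0.997 ± 0.16 (edgeR adjusted p = 0.00154). S100a1 in input measured 415, 374 and 467 FPKM in KA, 208, 200.4 and 297.5 FPKM in AAV control and 249.5, 231.5 and 258 FPKM in PBS. Its log2 fold changes of 0.83 ± 0.24 and 0.76 ± 0.13 were below the fold limit (edgeR adjusted p = 0.104 and 0.00248).

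Against AAV control the count of calls in input was 4, 7 and 5 without KA input #1, #2 and #3, and 4, 5 and 9 without AAV control input #1, #2 and #3. In the fit of run 1 alone, with 2 libraries per group, it was 8, all but S100a1. In KA input the 8 microglia markers summed to 698 to 1231 FPKM, against 77.8 to 129 FPKM in AAV control and 91.1 to 103 FPKM in PBS, and 7 of the 7 tested were called higher against each control. The 7 astrocyte markers summed to 817 to 837 FPKM in KA input, 422 to 753 in AAV control and 650 to 801 in PBS. The choroid plexus markers summed to 2488 to 4483 FPKM in KA input, 16.2 to 2984 in AAV control and 18.8 to 290.4 in PBS. The part of these shifts in the member values was not tested.

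Between the PBS and AAV control groups no member was called, in IP (0 of 8) or in input (0 of 9), nor was any gene (0% higher and 0% lower in both kinds, with 1153 genes in IP and 901 in input at an unadjusted edgeR p under 0.05). DESeq2 and limma-voom called no member either, and 0 members had an unadjusted edgeR p under 0.05. The log2 fold changes of the members lay between -0.69 and 0.11 in IP and between -0.13 and 0.17 in input, and the ranges of the 2 groups overlapped for all 9 genes in both kinds. With 1 library left out in turn the sign changed for 7 of 8 members in IP and for 9 of 9 in input.

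The IP to input ratio of FPKM within a homogenate shows how strongly each RNA was concentrated in the IP, whichever cells it came from. In AAV control, S100a1 had ratios of 12.2, 13.3 and 9.93, S100a13 of 12.6, 14.05 and 8.78, and S100b of 11.2, 12.9 and 8.29. In PBS the ratios were 10.05, 13.4 and 6.825 for S100a1, 8.715, 12.5 and 8.40 for S100a13 and 9.25, 12.6 and 7.30 for S100b. In KA they were 3.595, 3.965 and 4.57 for S100a1, 4.13, 4.29 and 4.76 for S100a13 and 2.98, 3.73 and 4.87 for S100b. For each of these 3 genes every KA ratio was below every control ratio, and the means went from 11.8 ± 1.73 (AAV control) and 10.1 ± 3.27 (PBS) to 4.05 ± 0.494 (KA) for S100a1. How many of all genes had KA ratios apart from those of the controls was not computed.

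Anxa5 had ratios of 7.53, 7.42 and 6.83 in AAV control, 6.95, 6.84 and 6.44 in PBS and 3.77, 4.035 and 4.31 in KA, also without overlap. S100a6 averaged 8.78 ± 0.62 in AAV control, 6.52 ± 0.763 in PBS and 5.45 ± 0.44 in KA, where the lowest PBS ratio (5.65) lay within the KA range. S100a10 averaged 3.59 ± 0.22, 3.46 ± 0.987 and 3.19 ± 0.144 in the same order. Its KA ratios (3.08 to 3.35) lay just below those of AAV control (3.38 to 3.815), and the PBS ratios (2.48 to 4.455) overlapped with both. S100a11 averaged 3.13 ± 1.49, 3.11 ± 2.44 and 4.02 ± 0.147, and Anxa2 2.78 ± 1.15, 2.13 ± 1.13 and 2.96 ± 0.621, each with KA inside the spread of the controls. The input counts behind the S100a11 ratios were low, from 21 to 88 in the control libraries. Anxa3 was the exception in direction, with a ratio below 1 in all 9 homogenates, on average 0.423 ± 0.0692 in AAV control, 0.623 ± 0.323 in PBS and 0.682 ± 0.0575 in KA. Anxa2 in PBS #2, at 0.973, was the only other ratio below 1.

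**Figure D4:**
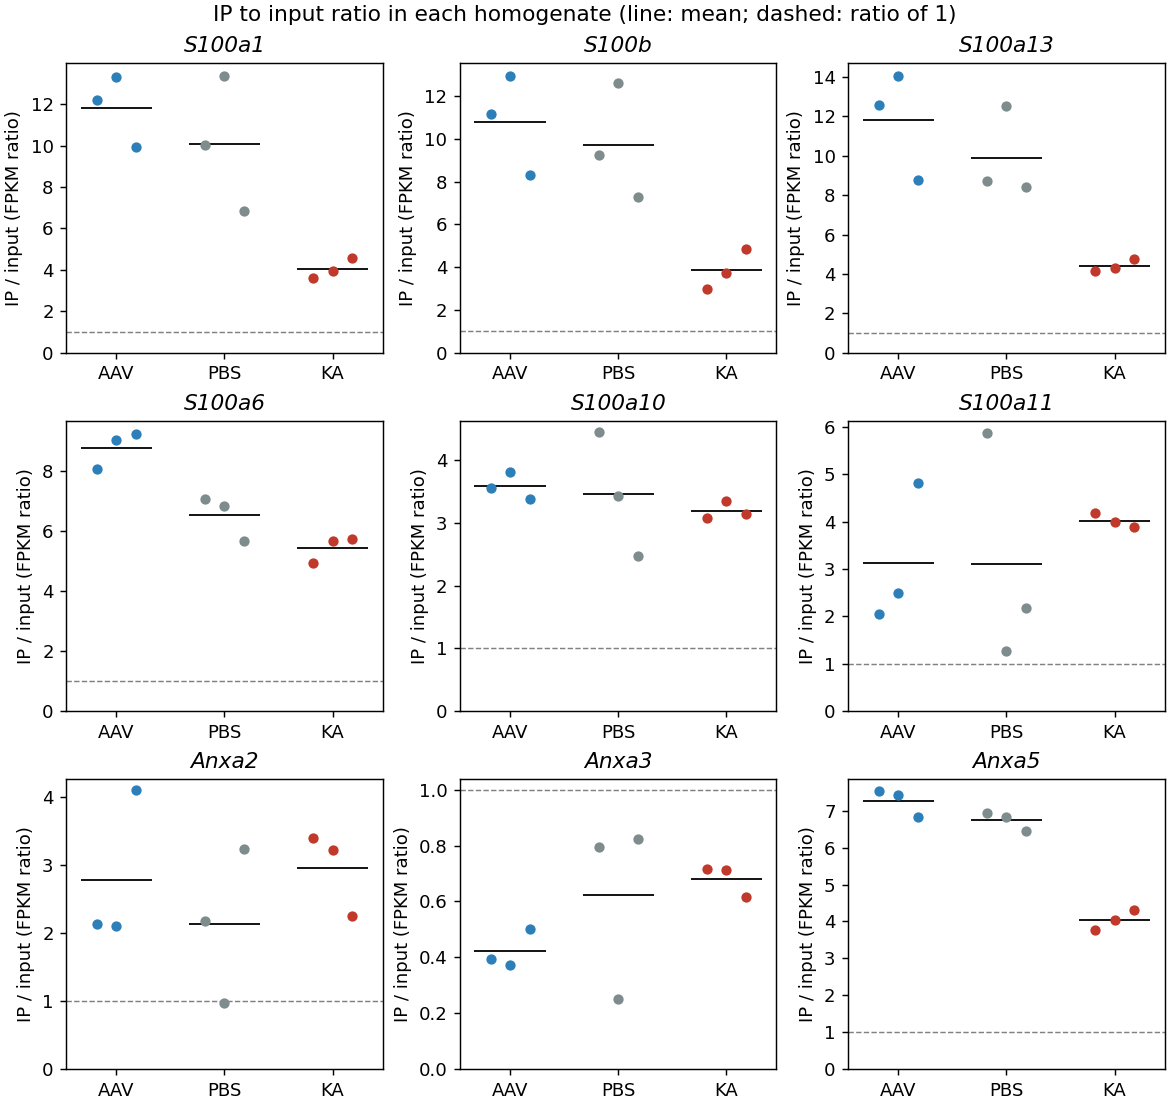
IP to input ratio of FPKM in each homogenate of the AAV control, PBS and KA groups, with points for samples #1 to #3, a line at the mean and a dashed line at a ratio of 1. The ratios of S100a1, S100b, S100a13 and Anxa5 are lower in all 3 KA homogenates than in all 6 controls, and those of Anxa3 lie below 1 throughout.

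The test of IP against input within a group, like the interaction below, held no term for the shared homogenate. In it 8 of 9 members were called higher in IP in KA, 8 of 8 tested in AAV control and 8 of 8 tested in PBS. The shares of all genes called higher in IP were 8.11%, 13.3% and 14.8%, and the shares called lower 4.51%, 13.1% and 12.3%. The log2 difference of S100a1 was 3.67 ± 0.29 in AAV control, 3.50 ± 0.34 in PBS and 2.26 ± 0.26 in KA. Anxa3 passed the FPKM filter in KA only, at -0.33 ± 0.14 (edgeR adjusted p = 0.0967). Without the filter it was -1.04 ± 0.35 in AAV control and -0.77 ± 0.27 in PBS (edgeR adjusted p = 0.0207 and 0.0197), which meets both limits for a call in AAV control. The microglia markers summed to 698 to 1231 FPKM in KA input and 24.0 to 45.3 FPKM in KA IP, and all 5 microglia markers tested were called lower in KA IP than in KA input. All 6 oligodendrocyte markers were called higher in IP than in input in KA (median 1.43). In AAV control and in PBS 0 of 6 were called, with medians of -0.46 and -0.70. The part of these lists in the member values was not tested. With AAV control #1 left out, 5 members were called in AAV control, with S100a10 (1.96), S100a11 (2.18) and Anxa2 (1.93) above the p limit. S100a11 lost its call in 2 of the 3 fits that left out an AAV control homogenate, with values from 1.34 to 2.18. In PBS, S100a11 lost its call without PBS #1 (0.91, and a mean ratio of 1.73 in place of 3.11), and Anxa2 lost its call without PBS #3 (0.69).

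An interaction term tested whether KA changed a member by different amounts in IP and in input. S100a1, S100a13 and S100b were called, with a lower KA effect in IP than in input, under both baselines, so 3 of 8 members were called lower and none higher. Among all genes 5.1% were called higher and 4.32% lower with the AAV control baseline, and 4.98% higher and 8.88% lower with the PBS baseline. With AAV control as the baseline the differences were -1.42 ± 0.37 for S100a1 (edgeR adjusted p = 0.0267), -1.31 ± 0.23 for S100a13 (edgeR adjusted p = 0.00312) and -1.34 ± 0.38 for S100b (edgeR adjusted p = 0.0364) on the log2 scale. With PBS as the baseline they were -1.31 ± 0.40, -1.16 ± 0.35 and -1.31 ± 0.42 (edgeR adjusted p = 0.028, 0.025 and 0.0352). The difference of Anxa5 was -0.78 ± 0.25 and -0.75 ± 0.21 (edgeR adjusted p = 0.0642 and 0.0197) and did not reach the fold limit. S100a6 (-0.62 ± 0.57 and -0.25 ± 0.41), S100a10 (-0.08 ± 0.52 and -0.11 ± 0.34), S100a11 (0.25 ± 0.75 and 0.77 ± 0.44) and Anxa2 (0.01 ± 0.72 and 0.50 ± 0.47) did not pass, with adjusted p by edgeR from 0.216 to 0.998.

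Of the 7 astrocyte markers, 5 were called lower in the same test under each baseline, with medians of -1.75 and -1.63, the direction of S100a1, S100a13 and S100b. The 3 reactive astrocyte markers tested had medians of -0.25 and 0.07, with 0 called lower and 1 called higher with the PBS baseline. The 4 ependymal markers tested had medians of -1.55 and -1.27, with 0 called. Of the 4 microglia markers tested, 3 and 4 were called lower. Of the 6 oligodendrocyte markers, 3 and 6 were called higher (medians 1.80 and 1.98), and of the 6 neuron markers 4 and 3. The part of these lists in the member values was not tested. Without KA #1, KA #2, AAV control #1 or AAV control #2 only S100a13 was called with the AAV control baseline. With the PBS baseline the count was 0 without KA #1, KA #2 or PBS #2, 1 without PBS #1, 3 without KA #3 and 4 without PBS #3. The added member without PBS #3 was Anxa2, with a KA effect higher in IP than in input (1.06). The 2 baselines share the KA samples.

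**Figure D5:**
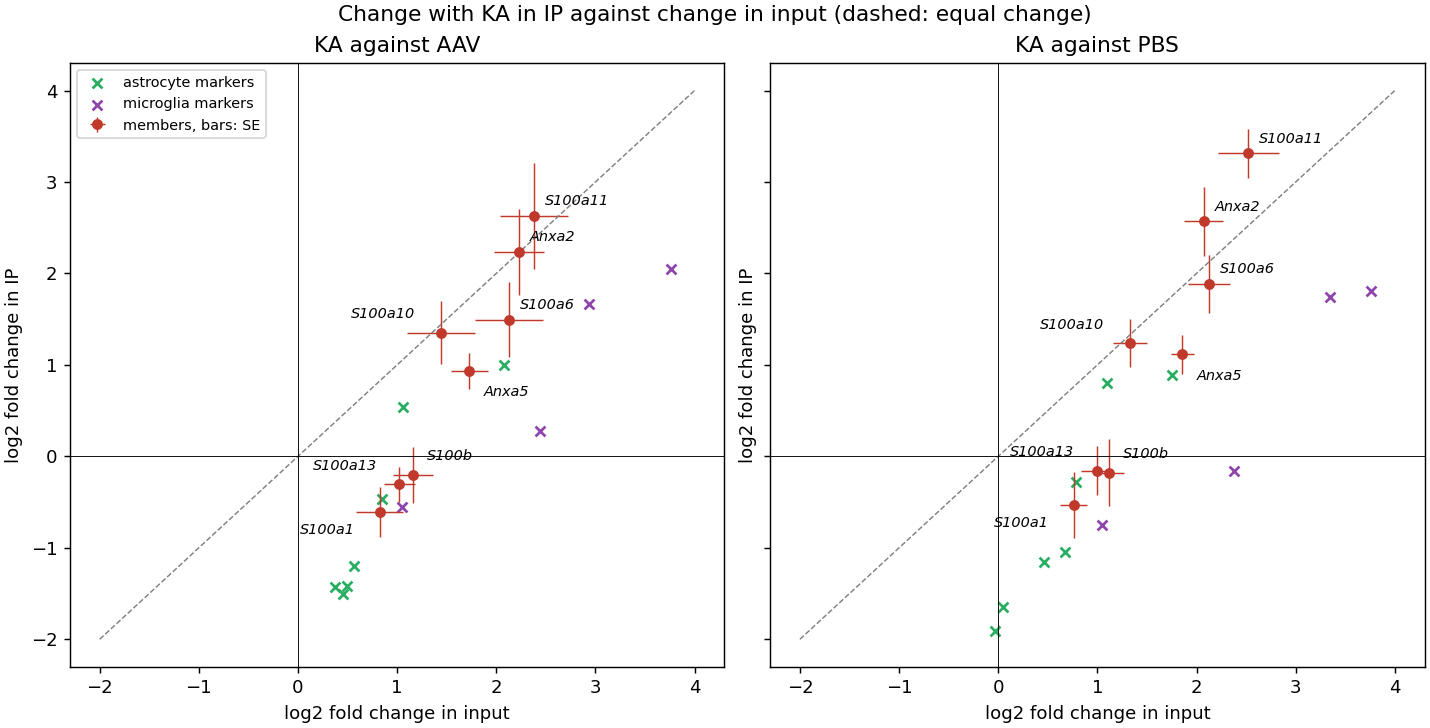
Log2 fold change with KA in IP (vertical axis) against that in input (horizontal axis), with AAV control (left) or PBS (right) as the baseline, for the 8 members tested (red, bars SE) and for astrocyte and microglia markers (crosses). S100a1, S100b and S100a13 lie well below the dashed line of equal change, and S100a11, Anxa2 and S100a10 lie near or above it.

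The other genes of both families were measured as a fixed list of 19. In IP 5 passed the FPKM filter against AAV control and 2 were called, both higher, and 4 passed against PBS with 1 called higher, beside 6.39% and 8.08% of all genes called higher. These were Anxa4, an annexin of epithelial cells, at 4.27 ± 0.631 FPKM in KA IP and 2.06 ± 0.527 in AAV control IP (log2 fold change 1.07 ± 0.25, edgeR adjusted p = 0.022, and 1.05 ± 0.19 against PBS, edgeR adjusted p = 0.00255), and S100a4, a gene known from motile cells, at 5.81 ± 1.51 and 2.63 ± 1.14 FPKM (1.22 ± 0.36 against AAV control, edgeR adjusted p = 0.0481). The counts of S100a4 were only 10 to 43 in these libraries. S100a16, which is broadly expressed, was called in input against PBS only (1.515 ± 0.18, edgeR adjusted p = 2e-04), at 289 ± 89.6 FPKM in KA input, 148 ± 36.6 in AAV control input and 99.1 ± 1.82 in PBS input. Its levels in IP, 1226 ± 349 FPKM in KA, 1194 ± 364 in AAV control and 651 ± 167.5 in PBS, gave no call. Of 15 binding partners and receptors, 3 were tested in IP against AAV control with 0 called, and 4 against PBS with 1 called. That gene was Ager, the receptor for advanced glycation end products that binds S100B, at 3.295 ± 1.75 FPKM in KA IP and 1.29 ± 0.0662 in PBS IP (log2 fold change 1.31 ± 0.36, edgeR adjusted p = 0.016). KA IP #1 to #3 measured 5.03, 3.32 and 1.53 FPKM on counts of 120, 74 and 36, beside 1.25 to 1.37 FPKM in PBS IP. Ager was below the FPKM limit in AAV control IP #3 (0.875) and was not tested against that group. None of the partners was called in input, where 3 and 4 were tested.

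Over the 18 libraries, the genes whose log2(FPKM + 1) followed a member most closely were sought among 12586 genes with a median FPKM above 1. Differences between IP and input and between KA and control enter these profiles, so the values describe a shared pattern of groups. They were not present throughout. S100a13 and S100b overlapped between KA IP and both control IPs, and Anxa2 and Anxa3 between IP and input in PBS. S100a13, S100b and S100a1 were each other's nearest genes (Pearson r = 0.994 for S100a13 with S100b, 0.991 for S100b with S100a1), apart from Cyb5a, a cytochrome, which was closest to S100a1 (0.995). S100a6 was closest to Fxyd1, a regulator of the sodium pump, and to the metallothionein gene Mt2 (both 0.989). S100a10 was closest to the matrix protein gene Sparc (0.988) and then to S100a6 (0.986), with Anxa2 not among them. S100a11 was closest to Hacd4 (0.972) and the chemokine gene Cxcl10 (0.97), and Anxa2 to Aebp1 (0.967) and S100a11 (0.966). Anxa5 was closest to Cd63, a tetraspanin (0.991), and to the water channel gene Aqp4 (0.989). Anxa3 followed Srgn, the serglycin gene of myeloid cells (0.981), and Sdf2l1 (0.961), and no other member was among its nearest genes. Its r with Anxa5 was 0.174 over the 18 libraries but 0.995 within input and 0.942 within IP. With Anxa2 it was 0.684, 0.984 and 0.954 in the same order. Within IP it was negative with S100a1 (-0.845), S100a13 (-0.632) and S100b (-0.612), which within input gave 0.916, 0.936 and 0.956.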

How the data were processed

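Per the study's methods, RNA of 18 libraries (NEBNext Ultra II, Illumina NovaSeq) was sequenced. The authors aligned reads to mm10 with STAR, and the processing notes also name featureCounts and edgeR; versions and strandedness are not given in the sources used here. The authors deposited a count without normalization for each gene symbol and an FPKM value for each gene and library, in files of their own.

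Counts were tested here with the edgeR 4.0.16 quasi-likelihood test in R 4.3.3 (TMM, Benjamini-Hochberg over all genes tested) between 3 and 3 libraries, or in 12 libraries for the interaction. Genes needed FPKM above 1 in every compared library. Calls needed an adjusted p under 0.05 and a log2 change of 1 or more in size. Each SE is the log2 change divided by the square root of its F. Alternatives were DESeq2 1.42.0, limma-voom (limma 3.58.1), RLE size factors, no FPKM filter, a replicate block, the run as covariate, all 9 libraries of a kind, run 1 alone (added after seeing the data) and leaving out each library. The scripts were tested on simulated data.

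Residuals of same-numbered samples correlated at 0.359, 0.549 and 0.555 between KA and AAV control IP and at 0.366, 0.461 and 0.563 in input. For the replicate block the numbers were taken to pair these samples. In both groups #1 and #2 were in run 1 and #3 in run 2, so a run difference alone could make these correlations positive. Samples of unlike number were not correlated, so the values cannot match #1 with #1 rather than with #2. IP and input libraries of 1 number share a homogenate. Their residuals correlated at 0.508, 0.508 and 0.661 in KA, 0.517, 0.742 and 0.758 in AAV control and 0.332, 0.165 and 0.233 in PBS. The main fits held no block and treated all libraries as independent, also in IP against input and in the interaction. A block by homogenate in these comparisons, or by number in the others, was an alternative only. KA and PBS, and PBS and AAV control, were not paired.

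Members, lists and motifs were chosen with earlier results of these data known. All members are named, genes of the family and partner lists only where called in KA against a control, and the 2 most similar genes of each member. Positions came from GENCODE vM21 and promoters from RefSeq, both GRCm38.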

Additional observations from a re-analysis of the deposited data

Results flagged for a closer look

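The effect of KA differed between IP and input in the interaction test (edgeR adjusted p under 0.05) for S100a1 by -1.42 on the log2 scale with the AAV control baseline and -1.31 with the PBS baseline, for S100a13 by -1.31 and -1.16, and for S100b by -1.34 and -1.31. For Anxa5 it differed by -0.75 with the PBS baseline, below the fold limit. Groups of 3 samples were too small for a check of single outlying samples.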

How the results depend on the processing

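Of 1022 values of single members under the alternatives, 905 kept their direction and their side of the thresholds, 56 lost the call, 18 gained it and 43 changed sign, 29 of these between PBS and AAV control with 1 library left out. Apart from leaving out libraries, no count of members called moved by over 1.5 times under any alternative. Leaving out 1 library or homogenate gave counts of 0 to 5 for KA IP against AAV control IP, 4 to 6 against PBS IP, 4 to 9 for KA input against AAV control input, 6 to 8 against PBS input, 5 to 8 for IP against input in AAV control, 7 to 8 in PBS, 8 in KA, 1 to 3 for the interaction with the AAV control baseline and 0 to 4 with the PBS baseline, and 0 between PBS and AAV control. Such fits have fewer samples. With the replicate block, 4 members were called in KA IP against AAV control IP and 8 in input, where S100a10 gained its call. The block changed no other call in the comparisons taken as paired, although S100a1 in KA IP passed the p limit. Used where the numbers do not pair the samples, the block left the counts at 5 in KA IP against PBS IP, 8 in input, where S100a13 reached 1.02, and 0 between PBS and AAV control in both kinds.

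Without the FPKM filter the sign changed for S100a13 in KA IP against PBS IP (0.01676), S100a10 in the interaction with AAV control (0.04648) and with PBS (0.1472) and S100a6 with PBS (0.01029), where the median of all genes was -0.56 in KA IP against PBS IP and -0.57 in the interaction with PBS. DESeq2 gave -0.001413 for Anxa2 in the interaction with AAV control. None of these was called, and the cause was not tested. Leaving out libraries gave ranges across 0 for S100a13 (-0.3869 to 0.07785) and S100b (-0.5663 to 0.07925) in KA IP against PBS IP, Anxa2 in the interaction with AAV control (-0.201 to 0.5429) and S100a10 in that with PBS (-0.3034 to 0.0462). In PBS IP against AAV control IP such ranges were S100a1 -0.4151 to 0.1689, S100a6 -0.6045 to 0.05446, S100a10 -0.06397 to 0.5296, S100a11 -1.028 to 0.3483, S100a13 -0.4241 to 0.07897, S100b -0.323 to 0.1887 and Anxa2 -1.054 to 0.4374. In PBS input against AAV control input they were S100a1 -0.03035 to 0.3522, S100a6 -0.1399 to 0.4145, S100a10 -0.0606 to 0.6144, S100a11 -0.3421 to 0.2824, S100a13 -0.1955 to 0.1971, S100b -0.0757 to 0.2216, Anxa2 -0.03043 to 0.4685, Anxa3 -0.2909 to 0.1338 and Anxa5 -0.2163 to 0.06008. No member was called in any fit of PBS against AAV control.

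On the scale of TMM-normalized CPM, IP to input ratios were 1.06 to 1.31 times those of FPKM. In KA they were 4.75 for S100a1, 6.39 for S100a6, 3.74 for S100a10, 4.72 for S100a11, 5.15 for S100a13, 0.799 for Anxa3 and 4.74 for Anxa5. In AAV control they were 9.98 for S100a6, 4.08 for S100a10 and 8.26 for Anxa5, and in PBS 7.51 for S100a6 and 7.75 for Anxa5. Low counts limit S100a11, Anxa2 and Anxa3 in control input, and S100a4 and Ager.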
